A study of Mus musculus with 78 samples.

Results

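The naive pluripotency transcription factors described here are 9 genes, *Klf4*, *Klf2*, *Klf5*, *Esrrb*, *Tfcp2l1*, *Tbx3*, *Zfp42*, *Prdm14* and *Nr0b1*, taken by name from the 54446 genes that have an RNA-seq value. The list of names uses no measured value, but it was drawn up with earlier results of these data known. They were followed in mouse embryonic stem cells (ESCs) in which TRIM28, the corepressor that directs H3K9me3 to endogenous retroviruses (ERVs), can be degraded. The line, TRIM28-FKBP, came from 1 picked colony of V6.5 cells, a hybrid mouse ESC line, with the FKBP degron (F36V) fused to TRIM28, and dTAG-13 (500 nM) triggers degradation of the fusion. All TRIM28-FKBP groups, controls included, carry the tag. The time course held DMSO (0.05%) controls, labelled 0 h, and dTAG-13 for 2 h, for 6 h and for 24 h. RNA-seq, but not TT-SLAM-seq, also had dTAG-13 for 96 h. No DMSO group of a later time was in the time course, so that time in culture and dTAG-13 cannot be told apart. TT-SLAM-seq is an assay in which RNA made during a 15 min pulse of 4-thiouridine (500 μM) is isolated and the converted reads are counted. Both had 3 libraries a group. ChIP-seq peaks of H3K27Ac and H3K9me3 (3 libraries a group) and of RNA polymerase II (RNAPII) and the Mediator subunit MED23 (2 a group) covered DMSO and 24 h of dTAG-13. Further RNA-seq groups of 3 libraries were the untreated parental V6.5 cells, which lack the tag, neural progenitor cells (NPCs) made from the tagged line and given DMSO, and a TRIM28-FKBP line with doxycycline-inducible shRNAs against 4 ERV families (the shERV line), given DMSO, dTAG-13, or dTAG-13 and doxycycline (Dox, 2 μg/ml). For the shERV line the titles put doxycycline in the last group only, while the treatment text names it, as a pre-treatment, for all 9 libraries. The groups follow the titles. For its near-complete rescue the study describes shRNA expression for 24 h ahead of TRIM28 degradation. In all, 62 of the 78 samples had values that were used, and replicates are separate samples of a group with no stated separate derivation, so that the tests measure the spread between samples that may share a culture.

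Naive pluripotency is the state of the pre-implantation epiblast, and ESCs held with the cytokine LIF express its factors. The study cultured its V6.5 ESCs in serum with LIF. LIF acts through the receptor pair LIFR and gp130 (*Il6st*) and JAK kinases on STAT3, whose targets in ESCs include *Klf4*, *Tfcp2l1* and *Socs3*, and the naive factors bind, together with OCT4, SOX2 and NANOG, to the enhancers of one another. *Klf4*, *Klf2* and *Klf5* encode Krüppel-like zinc finger proteins with overlapping targets, *Esrrb* an orphan nuclear receptor, *Tfcp2l1* a grainyhead-family factor, *Tbx3* a T-box factor that is also used in extraembryonic endoderm and mesoderm, *Zfp42* the zinc finger protein REX1 that is a common reporter of the naive state, *Prdm14* a factor that restrains FGF signalling and DNA methylation, and *Nr0b1* the X-linked nuclear receptor DAX1, which binds OCT4.

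The members lie on 7 chromosomes in GRCm38 (mm10). *Klf4* (ENSMUSG00000003032.8) spans chr4:55527143-55532466 on the minus strand, *Klf2* (ENSMUSG00000055148.7) chr8:72319033-72321656 on the plus strand, *Zfp42* (ENSMUSG00000051176.6) chr8:43295063-43306980 on the minus strand, and *Nr0b1* (ENSMUSG00000025056.4) chrX:86191764-86195947 on the plus strand. *Klf5* (ENSMUSG00000005148.8) lies at chr14:99298691-99315036, *Esrrb* (ENSMUSG00000021255.17) at chr12:86361117-86521628, *Tfcp2l1* (ENSMUSG00000026380.10) at chr1:118627945-118685168 and *Tbx3* (ENSMUSG00000018604.18) at chr5:119670669-119684724, all on the plus strand, and *Prdm14* (ENSMUSG00000042414.7) at chr1:13113457-13127163 on the minus strand.

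RefSeq promoters (GRCm38.p6) were found for 6 of the 9 members, with 2 start sites for *Esrrb*. The 250 bases before the RefSeq start are shown, on the gene's strand, for the 4 members on which the results below turn, with *Nr0b1*, the member that lost most RNA, last. Capitals mark GC boxes (GGGCGG), Klf motifs (GGGNGTGG, which overlap a GC box where both are called) and the octamer (ATGCAAAT), each searched on both strands.
Klf4 promoter, chr4:55532476-55532725, minus strand: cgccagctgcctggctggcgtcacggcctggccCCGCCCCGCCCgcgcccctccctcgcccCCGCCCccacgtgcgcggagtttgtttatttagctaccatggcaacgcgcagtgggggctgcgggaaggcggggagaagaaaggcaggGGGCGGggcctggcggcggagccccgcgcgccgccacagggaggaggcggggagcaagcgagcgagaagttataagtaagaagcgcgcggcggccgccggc
Klf2 promoter, chr8:72318812-72319061, plus strand: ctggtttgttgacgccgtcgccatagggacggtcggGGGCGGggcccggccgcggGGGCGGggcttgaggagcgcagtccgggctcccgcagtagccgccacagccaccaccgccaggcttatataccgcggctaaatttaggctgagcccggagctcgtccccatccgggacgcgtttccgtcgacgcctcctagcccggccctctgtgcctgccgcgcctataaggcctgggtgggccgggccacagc
Zfp42 promoter, chr8:43307010-43307259, minus strand: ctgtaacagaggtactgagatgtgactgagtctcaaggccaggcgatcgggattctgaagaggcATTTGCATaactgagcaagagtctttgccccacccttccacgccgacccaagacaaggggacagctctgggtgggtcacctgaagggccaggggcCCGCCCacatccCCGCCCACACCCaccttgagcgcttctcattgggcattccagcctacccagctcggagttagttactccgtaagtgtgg
Nr0b1 promoter, chrX:86191525-86191774, plus strand: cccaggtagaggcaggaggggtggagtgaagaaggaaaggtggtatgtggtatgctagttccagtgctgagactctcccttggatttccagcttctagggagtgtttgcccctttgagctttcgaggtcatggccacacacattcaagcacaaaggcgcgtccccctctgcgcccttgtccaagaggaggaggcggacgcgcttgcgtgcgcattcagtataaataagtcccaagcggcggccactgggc
The *Klf4* window held 4 GC boxes and was 74% G or C, and the *Klf2* window held 2 at 71.2%. The *Zfp42* window held 2 GC boxes, 1 Klf motif and 1 octamer, and that of *Nr0b1* held none of the motifs. Of 32851 promoters, 32.7% held a GC box, 15.9% the Klf motif and 1.6% the octamer, against 3, 2 and 1 of the 7 promoters of members. The Esrrb motif (AAGGTCA, 4.08% of all) and the Stat motif (TTCCNGGAA, 0.913%) were in none of the 7.

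All 9 members were measured in the ESC controls. In the DMSO controls of the time course, RNA levels (TPM, a unit scaled by length and library total that can be compared between genes) ranged from 129.7 for *Zfp42* to 3.91 for *Prdm14*. Between them stood *Klf2* at 121.4, *Esrrb* at 108, *Klf5* at 90.9, *Klf4* at 44.1, *Tfcp2l1* at 40.9, *Nr0b1* at 27.8 and *Tbx3* at 18.8 TPM (means, n = 3). *Zfp42* and *Klf2* overlapped in their libraries, and every other neighbouring pair in this order was separated. The 4 core factors *Pou5f1*, *Sox2*, *Nanog* and *Sall4* summed to between 1663 and 1736 TPM in the same libraries. *Trim28* mRNA, which does not report the protein that dTAG-13 degrades, ran from 622 to 626 TPM in the controls, from 365 to 382 after 24 h and from 185 to 204 after 96 h of dTAG-13. TT-SLAM-seq libraries held between 6481999 and 24266191 reads, the totals that the FPKM values scale to. The RNA-seq depth, known only relative to the other libraries, ran from 0.279, for the 24 h replicate 1, and then 0.649, to 1.51.

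After dTAG-13 the RNA of most naive factors was lower, and the members passed the test at different times. Against DMSO, 3 of the 9 fell by 2 h, 7 by 6 h, 7 by 24 h and 8 by 96 h at an adjusted p below 0.05, and the only member to rise was *Tbx3*, at 96 h. Of all 17922 genes tested, lower RNA was called for 7.02%, 15.5%, 25.0% and 37.4% at these times, and 42.9% were higher at 96 h. Falls past 2-fold numbered 0, 0, 4 and 7 at the 4 times, against 0.123%, 0.190%, 2.01% and 12.4% of genes. The median log2 change of the members was −0.13, −0.58, −0.71 and −1.96, beside −0.02, 0.03, 0.13 and 0.05 over all genes. In bulk RNA, fewer cells that express a gene and less RNA per cell cannot be told apart, and the 4 comparisons share their DMSO libraries. These controls are labelled 0 h, so that time in culture, up to 96 h, cannot be told apart from dTAG-13 either.

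*Nr0b1* showed the largest loss. It held 27.1, 28.6 and 27.5 TPM in DMSO, 32.1, 31.8 and 31.9 after 2 h, 17.0, 19.2 and 17.6 after 6 h, 3.86, 3.21 and 3.23 after 24 h and 0, 0.0668 and 0.0923 after 96 h. The 2 h libraries all lay above the controls (log2 change 0.20, SE 0.08, adjusted p = 0.117), and every later library lay below them. The fall at 24 h was −2.85 (SE 0.08, adjusted p = 9.37e-12) and at 96 h −5.68 (adjusted p = 6.64e-16) on the log2(TPM + 0.5) scale, which understates a change that ends near 0.

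*Klf4* and *Klf5* were among the earliest to fall. *Klf4* held 43.0, 45.5 and 43.9 TPM in DMSO, 37.6, 37.0 and 35.3 after 2 h (log2 change −0.26, SE 0.04, adjusted p = 0.00105), 26.6, 27.4 and 26.4 after 6 h (−0.71), 11.8, 11.7 and 11.1 after 24 h (−1.89) and 11.2, 10.6 and 11.0 after 96 h (−1.96). The groups up to 24 h stood apart in order of time, and the 24 h and 96 h libraries overlapped (adjusted p = 0.115). *Klf5* held 94.0, 92.0 and 86.8 TPM in DMSO, 67.8, 64.7 and 64.7 after 2 h (−0.46, SE 0.06, adjusted p = 0.000282), 62.6, 53.4 and 52.8 after 6 h (−0.69), 35.9, 32.2 and 32.2 after 24 h (−1.43) and 76.1, 77.3 and 73.5 after 96 h (−0.26). *Klf5* rose by 1.17 (SE 0.06, adjusted p = 3.11e-10) from 24 h to 96 h, a step over which *Klf2* fell and *Klf4* did not pass the test.

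*Klf2*, *Esrrb* and *Tfcp2l1* lost most of their RNA after 24 h. *Klf2* held 117, 127 and 120.2 TPM in DMSO, 109.6, 95.4 and 96.8 after 2 h, 104, 111 and 100.2 after 6 h, 113, 93.6 and 86.1 after 24 h (−0.32, adjusted p = 0.00455) and 31.0, 34.8 and 35.4 after 96 h (−1.83). All of these libraries lay below the controls, but at 2 h and 6 h the difference did not pass the test (−0.27 and −0.21, adjusted p = 0.0501 and 0.082). *Esrrb* held 110.4, 106 and 108 TPM in DMSO, 108, 107 and 102 after 2 h, 64.4, 81.6 and 69.5 after 6 h (−0.59), 69.6, 71.7 and 65.3 after 24 h (−0.65) and 6.48, 6.91 and 7.14 after 96 h (−3.89, SE 0.07, adjusted p = 3.37e-15). Its 6 h and 24 h libraries overlapped, below those of 2 h, and its mean at 96 h was 6.32% of that in DMSO, where that of *Prdm14* was 1.06% and that of *Nr0b1* 0.191%. *Tfcp2l1* held 41.5, 40.9 and 40.4 TPM in DMSO, 43.9, 41.0 and 40.7 after 2 h, 35.9, 37.2 and 34.5 after 6 h (−0.19, adjusted p = 0.0149), 39.5, 38.2 and 36.5 after 24 h (−0.10, SE 0.05, adjusted p = 0.0996) and 11.9, 11.6 and 10.3 after 96 h (−1.82).

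*Zfp42* was lower than in DMSO at each time from 6 h on, with 132, 133 and 124 TPM in DMSO, 132, 117 and 125 after 2 h, 89.0, 88.6 and 82.7 after 6 h (−0.58), 57.7, 53.3 and 50.7 after 24 h (−1.26, SE 0.05, adjusted p = 3.01e-10) and 24.9, 26.3 and 24.8 after 96 h (−2.33). Part of its reads may be assigned to the near-identical pseudogene *Zfp42-ps1*, which was listed at between 26.9 and 32.5 TPM in DMSO and between 2.97 and 4.79 after 96 h. *Prdm14*, the least abundant member, held 3.65, 4.19 and 3.89 TPM in DMSO, 2.96, 2.78 and 2.93 after 2 h (−0.38, adjusted p = 0.0316, which did not pass without any 1 of the 6 libraries), 3.93, 3.74 and 3.70 after 6 h, 1.78, 2.41 and 2.44 after 24 h (−0.71, adjusted p = 4.90e-05) and 0, 0.0670 and 0.0571 after 96 h (−3.03). *Tbx3* held 18.8, 18.4 and 19.1 TPM in DMSO, 18.5, 17.0 and 15.9 after 2 h, 15.0, 14.2 and 14.2 after 6 h (−0.36, adjusted p = 0.00352), 21.0, 17.4 and 16.2 after 24 h (−0.06, adjusted p = 0.555) and 22.2, 23.6 and 22.0 after 96 h. Its rise at 96 h of 0.26 (SE 0.08, adjusted p = 0.00832) became −0.02 (adjusted p = 0.842) when each library was centred on its median gene.

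**Figure D1:**
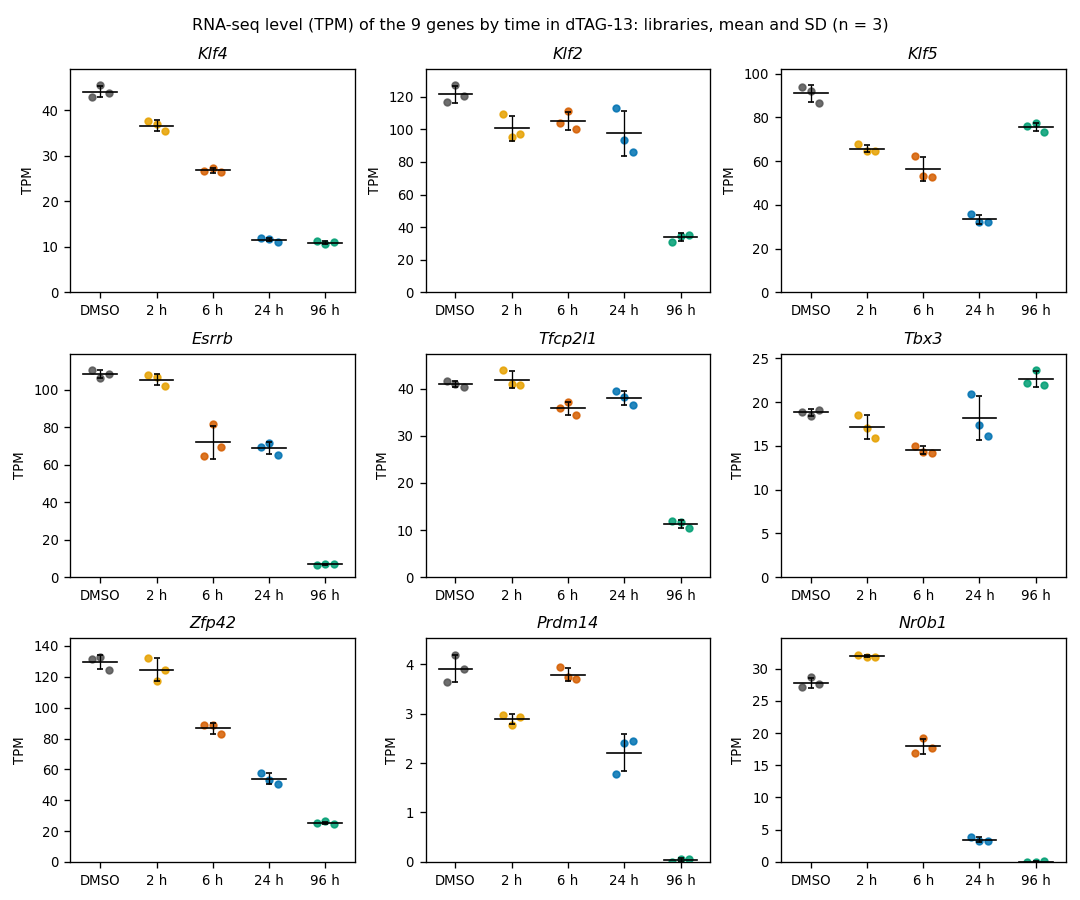
RNA-seq level in TPM (y axis, from 0) of each of the 9 genes in the controls and at the 4 dTAG-13 times (x axis, hours, categories not to scale), with points for libraries and black lines for the mean and SD of 3. *Klf4* steps down to 24 h and stays, *Klf5* falls to 24 h and returns to between 73.5 and 77.3 at 96 h, *Esrrb* and *Tfcp2l1* drop mainly between 24 h and 96 h, and *Tbx3* at 96 h lies above its controls.

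Between 24 h and 96 h, 6 members fell further and 2 rose. The falls were −3.24 for *Esrrb*, −2.83 for *Nr0b1*, −2.32 for *Prdm14*, −1.71 for *Tfcp2l1*, −1.51 for *Klf2* and −1.07 for *Zfp42*, all past 2-fold, against 42.0% of all genes lower and 16.5% lower past 2-fold. *Klf5* (1.17) and *Tbx3* (0.31, adjusted p = 0.00234) rose, the first past 2-fold, against 37.4% of genes higher and 13.7% higher past 2-fold. Centring on the median gene moved the split of all genes called in the time course, from 3296 higher and 2783 lower at 6 h to 2023 and 4710. The 24 h split of 7681 and 4486 became 4643 and 7900, and the 96 h split of 7681 and 6704 became 6037 and 8714, with medians over all genes of −0.07, −0.16 and −0.23 after centring. With this centring all 9 members were lower at 24 h, against 44.1% of genes, with *Tfcp2l1* at −0.39 and *Tbx3* at −0.35.

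Other genes of the pluripotency programme fell as well. At 24 h, 10 of 12 other naive-state genes were lower and 0 higher, led by the homeobox gene *Gbx2* (−3.12) and the threonine dehydrogenase gene *Tdh* (−1.36), and 3 of 4 core factors were lower, with the OCT4 gene *Pou5f1* at −1.11. Of 12 genes of the formative and primed epiblast, the states that follow the naive one, 9 were lower and 1 higher, with the WNT effector *Lef1* at −2.08 and *Fgf15* at −1.77. By 96 h, 10 other naive-state genes, all 4 core factors and 10 formative and primed genes were lower, with *Tdh* at −4.89, *Pou5f1* at −3.51 and the de novo methyltransferase gene *Dnmt3b* at −2.34, while *Bmp4* (2.22) and *Sp5* (1.62) were higher and *Tcl1* was listed at 0 in every 96 h library. Of 8 genes of the LIF-STAT3 pathway, 5 were higher and 1 lower at 96 h, with the kinase gene *Jak2* at 2.87, *Il6st* at 1.60 and the STAT3 target *Pim1* at −1.59. Of the members' relatives at 96 h, *Klf6* (1.69), *Klf14* (1.36), *Tbx2* (2.98) and *Tbx4* (1.39) were higher, and *Klf15* (−1.03) and *Prdm1* (−2.15) lower.

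Markers of other cell types moved with the 96 h values. All 10 feeder fibroblast markers tested were higher, with *Col1a1* at 4.40 and *Col3a1* at 4.33 on the log2 scale. The sum of all 12 listed went from between 25.7 and 27.2 TPM to between 316 and 340. Of 9 primitive endoderm markers, 7 were higher and 2 lower, with *Sox17* at 4.18 and *Col4a1* at 2.37. The sum of all 10 listed went from between 75.5 and 85.3 to between 348 and 358 TPM. Primitive streak and mesoderm markers did not rise as a set. Of 6 tested, 2 were higher and 1 lower, with a median log2 change of −0.04. The sum of all 8 listed, between 69.3 and 79.1 TPM at 96 h and between 16.6 and 20.8 in DMSO, thus rested on few genes, with *Hand1* at 3.05. Of 6 markers tested of 2-cell-like cells, a rare ESC state, 6 were higher at 96 h and 0 past 2-fold, with a median of 0.71. The sum of the 7 listed genes found went from between 159 and 175 to between 243 and 277 TPM. Of 7 neural progenitor markers, 2 were higher and 3 lower. The part of all these cells in the 96 h values of the members was not tested. At 24 h, 5 of the 10 fibroblast markers were higher and 1 lower, with sums between 35.8 and 40.6 TPM, 3 of 9 primitive endoderm markers were higher and 3 lower, with sums between 80.4 and 86.4, and the part of these cells was not tested there either.

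Nascent RNA gave a smaller set of changes in the first hours. In TT-SLAM-seq (FPKM, scaled by gene length and library total), 8 members could be tested, since *Prdm14* stood between 0.0788 and 0.307 FPKM on 7 to 77 reads a library. At 2 h the members' changes lay between 0.06 and 0.49, and 0 passed the limma test (2 at an unadjusted p below 0.05), against 1.58% of 13357 genes higher and 1.97% lower. With median centring 1 member, *Klf5*, was higher, against 3.44% of genes, and with limma's voom on recovered reads *Klf5* and *Zfp42* were, 2 members against 6.72%. The split of all genes went from 211 higher and 263 lower to 459 and 220 with centring. *Klf5* held 5.28, 4.39 and 4.13 FPKM in DMSO and 6.63, 7.12 and 6.23 at 2 h, with no overlap (0.49, SE 0.12, adjusted p = 0.0585). In the RNA-seq at 2 h the *Klf5* level was lower in every library, the opposite side of its controls, though the libraries of the 2 assays were separate and the 2 changes were not tested against each other.

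At 6 h, *Nr0b1* was the only member that passed, with 2.62, 2.43 and 1.68 FPKM in DMSO and 1.31, 1.36 and 1.58 at 6 h (−0.50, SE 0.13, adjusted p = 0.0416, against 1.27% of genes lower). The libraries did not overlap, but the call was lost without any 1 library other than DMSO replicate 3 (adjusted p from 0.0686 to 0.139). Centring moved the split of all genes from 1044 higher and 170 lower to 730 and 341. At 24 h 4 members were lower and 0 higher, against 5.59% of genes lower and 32.3% higher. *Nr0b1* held 0.296, 0.303 and 0.184 FPKM at 24 h (−1.84, SE 0.13, adjusted p = 2.11e-05), from 30, 26 and 5 reads. *Klf4* held 0.952, 0.943 and 1.19 FPKM against 3.30, 3.16 and 1.63 in DMSO (−1.02, SE 0.22, adjusted p = 0.0047), and these 2 were the members past 2-fold (0.906% of genes).

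The other 2 calls at 24 h were smaller. *Klf5* held 3.51, 3.12 and 3.46 FPKM (−0.40, adjusted p = 0.0291) and *Zfp42* 2.88, 3.21 and 3.21 against 4.29, 4.59 and 3.54 in DMSO (−0.36, adjusted p = 0.0198). In both genes the groups did not overlap, but *Klf5* lost its call without any 1 of 5 of the 6 libraries (all but DMSO replicate 3) and with the replicate block (adjusted p = 0.0546). *Zfp42* lost its call without DMSO replicate 1, DMSO replicate 2 or 24 h replicate 1, which left 2 calls, and with only the groups compared (adjusted p = 0.0536). *Klf2* stood on the other side, at 17.3, 14.6 and 12.0 FPKM in DMSO and 16.6, 20.9 and 21.2 at 24 h (0.42, SE 0.19, adjusted p = 0.115), with overlap. *Esrrb* (−0.13), *Tfcp2l1* (−0.16) and *Tbx3* (−0.31) overlapped their controls. With median centring, which moved the median of all genes from 0.21 to −0.03 and the split from 4316 higher and 747 lower to 1858 and 2249, 7 members were lower, all but *Klf2* of those tested, against 16.8% of genes. Voom on the recovered reads also gave 7, against 16.7%.

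**Figure D2:**
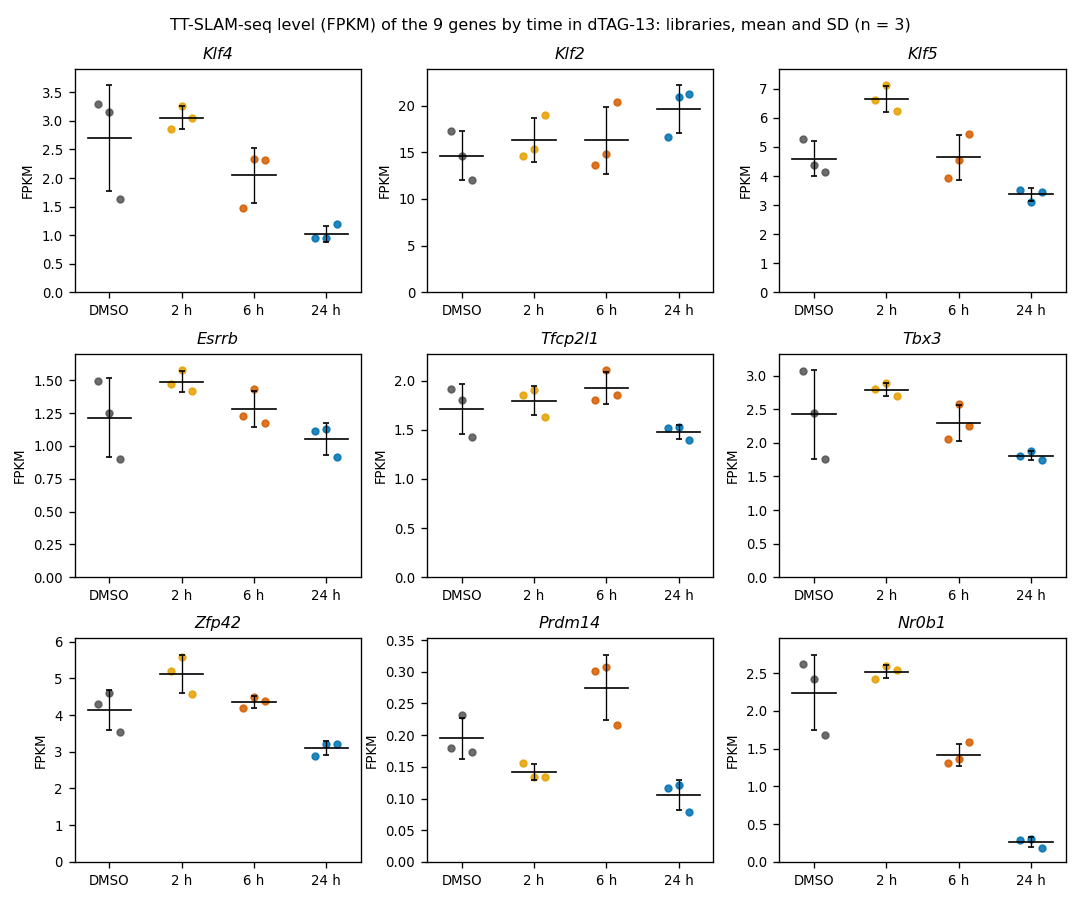
TT-SLAM-seq level in FPKM (y axis, from 0) of the 9 genes in the controls and at the 3 dTAG-13 times (x axis, hours, categories), with points for libraries and black lines for the mean and SD of 3. *Nr0b1* and *Klf4* end lowest against their controls, *Klf5* is highest at 2 h, between 6.23 and 7.12, and *Klf2* shows no fall.

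In the shERV line, 24 h of dTAG-13 lowered all 9 members, and all 9 were higher again with doxycycline, which induces the shRNAs against ERV RNA. With dTAG-13 against DMSO, 9 of 9 were lower, 7 of them past 2-fold, against 12.8% and 1.44% of 16166 genes. With dTAG-13 and Dox against dTAG-13, 9 of 9 were higher and 7 past 2-fold, against 17.5% and 1.49%. The 2 comparisons share the dTAG-13 libraries, so that a low value there lowers one and raises the other. Median changes of the members were −1.45 and 1.47, beside 0.14 and −0.04 over all genes. Median centring moved the split of all genes from 6667 higher and 2062 lower to 4189 and 4789 in the former comparison, with a median of −0.03, and from 2825 and 4737 to 4570 and 4123 in the latter.

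*Nr0b1* held 11.6, 11.9 and 13.7 TPM in DMSO, 0.748, 0.767 and 0.446 with dTAG-13 and 12.0, 11.7 and 11.9 with dTAG-13 and Dox, a fall of −3.49 (SE 0.11, adjusted p = 2.34e-09) and a rise of 3.43 (adjusted p = 2.56e-09). *Klf4* held 23.1, 23.9 and 25.5 TPM, then 5.99, 6.11 and 6.11 (−1.91), then 25.6, 24.6 and 24.8 (1.96). In both genes the dTAG-13 libraries lay far below the other 6, which overlapped. *Esrrb* held 51.9, 55.2 and 63.1 TPM, then 19.6, 22.1 and 19.5 (−1.45), then 59.8, 67.0 and 67.5 (1.64). *Zfp42* held 75.1, 82.1 and 84.2 TPM, then 26.6, 29.0 and 29.5 (−1.49), then 81.4, 78.9 and 78.3 (1.47). *Prdm14* held 2.47, 2.56 and 3.28 TPM, then 0.504, 0.282 and 0.479 (−1.83), then 2.94, 3.11 and 2.79 (1.91). These 3 repeated the shape of *Nr0b1* and *Klf4*.

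*Tbx3* held 24.3, 27.7 and 27.4 TPM in DMSO, 10.6, 9.99 and 11.5 with dTAG-13 (−1.27, adjusted p = 6.50e-08) and 27.4, 26.9 and 29.1 with Dox (1.34). *Tfcp2l1* held 38.7, 42.3 and 43.6 TPM, then 19.5, 18.6 and 20.2 (−1.08), then 46.7, 47.5 and 46.7 (1.26). At 24 h in the time course neither had passed the test in the main fit, though both were lower there with median centring. The changes of *Klf5* and *Klf2* were the smallest, with *Klf5* at 86.9, 98.1 and 97.3 TPM, then 62.1, 58.6 and 64.2 (−0.61), then 83.5, 85.3 and 83.9 (0.45), and *Klf2* at 65.9, 77.0 and 75.3, then 59.0, 55.2 and 56.1 (−0.35), then 82.9, 83.9 and 84.1 (0.55).

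**Figure D3:**
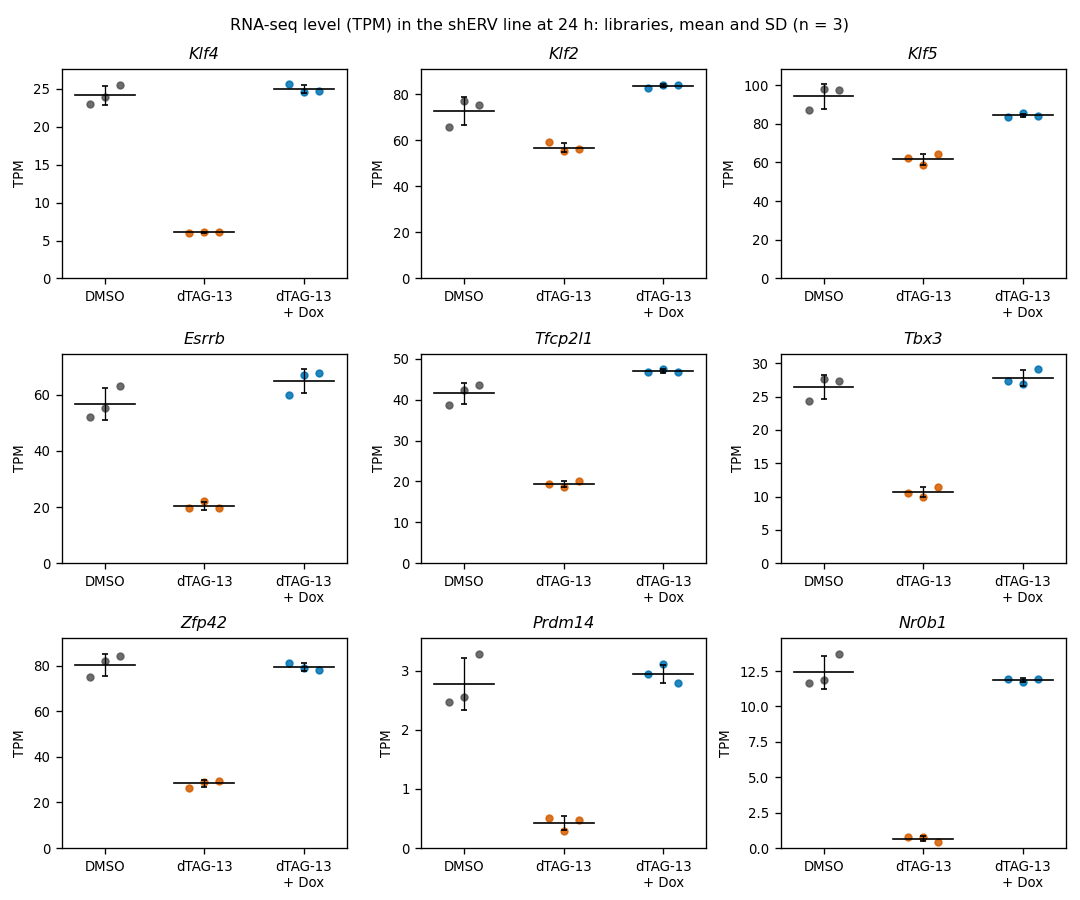
RNA-seq level in TPM (y axis, from 0) of the 9 genes in the shERV line given DMSO, dTAG-13, or dTAG-13 and doxycycline (Dox) (x axis), with points for libraries and black lines for the mean and SD of 3. In every panel the 3 dTAG-13 libraries lie below the 6 others, with *Nr0b1* between 0.446 and 0.767 TPM.

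Between dTAG-13 with Dox and DMSO, 0 of the 9 members passed the limma test (4 at an unadjusted p below 0.05, and 1, *Klf5*, lower with median centring, against 0.0433% of genes), where 8 genes of all were higher (0.0495%) and 2 lower (0.0124%). The intervals of the differences bound how far the levels can be apart. The 95% interval ran from −0.07 to 0.17 for *Klf4*, from −0.14 to 0.11 for *Zfp42* and from −0.30 to 0.19 for *Nr0b1*. *Klf2* (0.20, interval 0.08 to 0.33) and *Tfcp2l1* (0.18, interval 0.06 to 0.29) were higher with Dox in every library, and *Klf5* (−0.16, interval −0.27 to −0.04) lower in every library, with adjusted p = 0.2, 0.208 and 0.219. Of all genes, 26.1% were likewise higher without overlap and 1.27% lower. Failing the threshold does not show that the levels were the same.

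Other groups of genes in the shERV line moved along. With dTAG-13, 10 of 12 other naive-state genes were lower, led by *Tcl1* (−2.62) and the nuclear receptor gene *Nr5a2* (−2.16), 1 was higher (*Sp5*, 1.32), and all 4 core factors were lower, with *Sox2* at −1.41 and *Nanog* at −1.06. With Dox against dTAG-13 the same list held 10 higher and 1 lower, and 4 of 4 core factors were higher. Of 6 markers tested of 2-cell-like cells, a rare ESC state, 6 were higher with dTAG-13. The sum of the 7 listed genes found was between 349 and 405 TPM against between 135 and 156 in DMSO and between 162 and 173 with Dox. Fibroblast markers summed to between 114 and 131 TPM in all 9 libraries. The labels of these libraries describe culture on feeder fibroblasts with no depletion step, while the study's methods describe feeder depletion before RNA-seq without naming a line. The part of either in the members' values was not tested.

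The 24 h effect of dTAG-13 was then compared across both lines in 1 model (24 libraries, interaction term), and 7 members passed, against 52.9% of genes in either direction. It was stronger in the shERV line for 6 members, by −1.21 for *Tbx3*, −1.12 for *Prdm14*, −0.98 for *Tfcp2l1*, −0.80 for *Esrrb*, −0.64 for *Nr0b1* and −0.23 for *Zfp42*, against 25.8% of 18626 genes with a lower term. *Klf5* fell less in the shERV line, by a term of 0.83 (adjusted p = 1.22e-07, where 5031 genes had a higher term). For *Klf4* (−0.02, 95% interval −0.14 to 0.11) and *Klf2* (−0.03, interval −0.26 to 0.21) the difference did not pass. The *Zfp42* term had an adjusted p of 0.0188 and was lost with median centring and without 4 of the libraries in turn. Centring moved the all-gene split of the term from 5031 higher and 4813 lower to 6799 and 3750, with a median of 0.12, and those of *Klf4* and *Klf2* to 0.11 and 0.10. The shERV libraries were of ribosome-depleted total RNA and those of the time course of poly(A) RNA, so that the line and the preparation cannot be told apart.

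**Figure D4:**
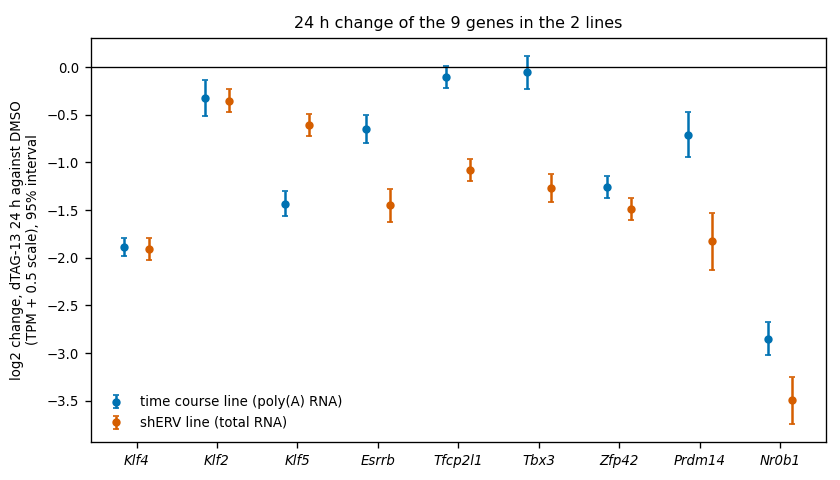
Log2 change of RNA on the TPM + 0.5 scale after 24 h of dTAG-13 against DMSO (y axis) for the 9 genes (x axis) in the time course (blue) and in the shERV line without Dox (orange), with 95% intervals from 3 against 3 libraries. *Klf4* and *Klf2* lie together, *Klf5* fell more in the time course, and *Tfcp2l1* and *Tbx3* fell in the shERV line only by the threshold, with the difference itself tested at −0.98 and −1.21.

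Parental cells without the tag held more RNA of every naive factor. In untreated parental V6.5 cells all 9 members were higher than in tagged cells given DMSO, 8 past 2-fold, against 25.0% and 2.25% of 17458 genes. *Klf4* held 326, 329 and 331 TPM in the parental cells (2.88 above the tagged controls, SE 0.06, adjusted p = 1.91e-09), *Nr0b1* 131, 124 and 127 (2.18), *Esrrb* 499.6, 473 and 488 (2.16) and *Klf2* 476, 467 and 463 (1.95). The smallest difference was in *Tfcp2l1*, at 66.3, 68.8 and 67.2 TPM (0.71). *Trim28* mRNA was between 1387 and 1418 TPM in the parental cells. In the same comparison 7 of 12 other naive-state genes were higher and 3 lower. Of 12 formative and primed genes, 8 were lower (*Pou3f1*, −3.04) and 3 higher, against 41.0% of all genes lower. All 6 of the 2-cell-like markers were lower, and fibroblast markers summed to between 121 and 122 TPM. Culture and treatment differed along with the tag and cannot be told apart from it. Centring moved the split of all genes from 4364 higher and 7161 lower to 7292 and 4698, with a median of 0.10.

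NPCs gave the low end of the scale. All 9 members were lower than in the tagged ESC controls, all past 2-fold, against 39.5% and 20.7% of genes. *Zfp42* and *Prdm14* were listed at 0 in all 3 NPC libraries. *Klf4* at 4.84, 5.85 and 5.95 TPM and *Klf5* at 6.87, 6.97 and 6.30 kept the highest levels, *Tbx3* stood at 1.66, 1.44 and 1.69, *Esrrb* at 1.10, 1.16 and 1.04, and *Nr0b1* at 0.515, 0.433 and 0.783. *Klf2* and *Tfcp2l1* lay below 0.5 TPM. Centring moved the split of all genes from 8639 higher and 6898 lower to 6408 and 9077, with a median of −0.24. Neural progenitor markers summed to between 3787 and 3858 TPM in NPCs and between 92.4 and 95.5 in the ESC controls. Set beside these levels, *Nr0b1* after 96 h of dTAG-13 stood below all 3 NPC libraries, whereas *Esrrb*, *Tfcp2l1*, *Klf2*, *Klf4* and *Zfp42* at 96 h stood above theirs.

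ChIP-seq gave the chromatin around the members at 24 h. For each gene and library the highest fold enrichment of any peak within the gene or 50 kb of it was divided by the median of the library's 5000 highest peaks, because libraries differed in peak number (MED23, 58925 and 63045 in DMSO against 14551 and 15335 with dTAG-13) and in height (median of the top 5000 at 20.7 and 21.2 against 9.02 and 9.13). A gene is called lower or higher where the groups do not overlap, and an exact two-sided permutation test cannot go below p = 0.33 with 2 libraries a group or 0.1 with 3. None of these peak comparisons can therefore reach 0.05.

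MED23, a subunit of the Mediator complex that links enhancer-bound factors to RNAPII, was lower around 8 of 9 members, all but *Nr0b1*, against 58.0% of 17885 genes (exact permutation p = 0.33 each). The scaled height was 5.47 and 5.48 around *Klf2* in DMSO and 2.83 and 2.63 with dTAG-13, the highest of the members in both. In DMSO this peak reached to within 1 kb of the *Klf2* start, with its summit at −2.79 kb in replicate 1. With dTAG-13 the highest peak did not reach that far, and the value within 1 kb was 1.01 and 1.17. Around *Klf4* the scaled height was 2.63 and 4.58 in DMSO and 1.05 and 1.24 with dTAG-13, with the highest peak at the start of the gene in DMSO replicate 1 and 56.4 kb downstream of the start in replicate 2. Around *Esrrb* it was 3.42 and 3.62 against 1.70 and 1.74, in both groups within an intron about 141 kb into the gene. Around *Tbx3* it was 2.76 and 2.91 against 1.96 and 1.81, and the highest peak was 36.3 kb downstream of the start in DMSO and at the start with dTAG-13. *Prdm14* (0.796 and 0.922 against 0 and 0.455) had no MED23 peak in dTAG-13 replicate 1.

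*Nr0b1* had 4 MED23 peaks in its window in each DMSO library and 1 in each dTAG-13 library. The scaled height of the highest was 0.622 and 0.522 in DMSO and 0.577 and 0.533 with dTAG-13, so that its groups overlapped. It lay within 4.34 kb upstream of the gene start in all 4 libraries, outside the gene body. The bases around its summit are shown because this member lost the most RNA while the scaled height of its highest peak overlapped between the groups. Capitals mark an Esrrb motif (AAGGTCA), which 5.92% of the 5000 highest MED23 summits held, and 1 of 9 members' summits.
Nr0b1 MED23 summit, chrX:86187412-86187612, plus strand: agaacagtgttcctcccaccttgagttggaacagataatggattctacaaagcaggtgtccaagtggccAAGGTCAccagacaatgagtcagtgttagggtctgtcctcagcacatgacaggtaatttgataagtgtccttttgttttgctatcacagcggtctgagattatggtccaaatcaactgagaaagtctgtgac
The fold enrichment as deposited fell around all 9 members, *Nr0b1* included (13.2 and 10.8 against 5.21 and 4.87), and did so for 91.9% of genes.

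RNAPII was lower around 5 members, *Klf4*, *Klf2*, *Esrrb*, *Tfcp2l1* and *Tbx3*, against 44.5% of genes, and higher around 1, *Zfp42*, against 22.3% (exact permutation p = 0.33 each). Around *Klf4* the scaled height was 2.35 and 2.21 in DMSO and 1.30 and 1.33 with dTAG-13, at the start of the gene in all 4 libraries. Around *Klf2* it was 2.00 and 2.00 against 1.35 and 1.14. *Esrrb* (0.576 and 0.604) and *Tbx3* (0.526 and 0.465) had no called RNAPII peak with dTAG-13, and *Nr0b1* had none in any library. The RNAPII libraries held 19853 and 19194 peaks in DMSO and 8182 and 7689 with dTAG-13. Low peaks may thus go uncalled with dTAG-13, and a missing peak does not show that RNAPII was lost. Around *Zfp42* it was 0.649 and 0.765 against 1.10 and 0.775, but these were different peaks. In DMSO it lay at the gene start, where no peak was called within 1 kb with dTAG-13, and with dTAG-13 it lay about 1.19 and 1.24 kb into the gene. By called peaks, RNAPII at the start of *Zfp42* was thus lower (0.649 and 0.765 against 0 and 0, where 0 means no called peak). The highest peak was also lower on the fold as deposited (8.45 and 9.71 against 7.23 and 4.85), so that the direction rests on the scaling and on the peak taken.

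H3K27Ac, a mark of active enhancers and promoters, was lower around 3 members, *Klf4*, *Klf2* and *Nr0b1*, against 9.49% of genes, and higher around 0, against 3.77% (exact permutation p = 0.1 each). *Klf4* held 1.20, 1.02 and 1.15 in DMSO and 0, 0.864 and 0.652 with dTAG-13, where 0 means no peak. *Klf2* held 1.04, 0.972 and 1.03 against 0.789, 0.646 and 0.639, and *Nr0b1* 0.213, 0.212 and 0.269 against 0, 0.191 and 0. For *Klf2* the place of the highest peak differed between libraries of the same group. Within 1 kb of its start the groups overlapped (0.743, 0.972 and 0.578 against 0.680, 0.646 and 0.600). The libraries with dTAG-13 differed among themselves, with 30259, 117348 and 45662 peaks, and the 2 with few peaks carry the zeros. Replicate 2, with as many peaks as the controls, was below all DMSO libraries for all 3, but the rule of the call requires this, so it adds no support. Without dTAG-13 replicate 3 the count was 5, and on the fold as deposited 6, against 11.7% of genes, with *Nr0b1* no longer among them.

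H3K9me3, the heterochromatin mark laid down through TRIM28, was highest around *Tbx3* and *Zfp42*. Around *Tbx3* the scaled height was 0.988, 0.768 and 0.775 in DMSO and 1.47, 1.23 and 0.593 with dTAG-13, with overlap, where 1 is the median of a library's 5000 highest peaks. *Klf2* had no peak in any of the 6 libraries. *Zfp42* (0.932, 0.815 and 0.836 in DMSO, and 0, 0.746 and 0.648 with dTAG-13) and *Prdm14* (0.633, 0.622 and 0.709, then 0 in all 3) were lower, against 35.3% of genes, and 0 members were higher, against 2.20% (exact permutation p = 0.1 for both). The dTAG-13 replicate 1 held 11474 peaks where the 5 other libraries held at least 104579. The count went to 0 among peaks with a −log10 q of at least 10 and at the gene start.

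**Figure D5:**
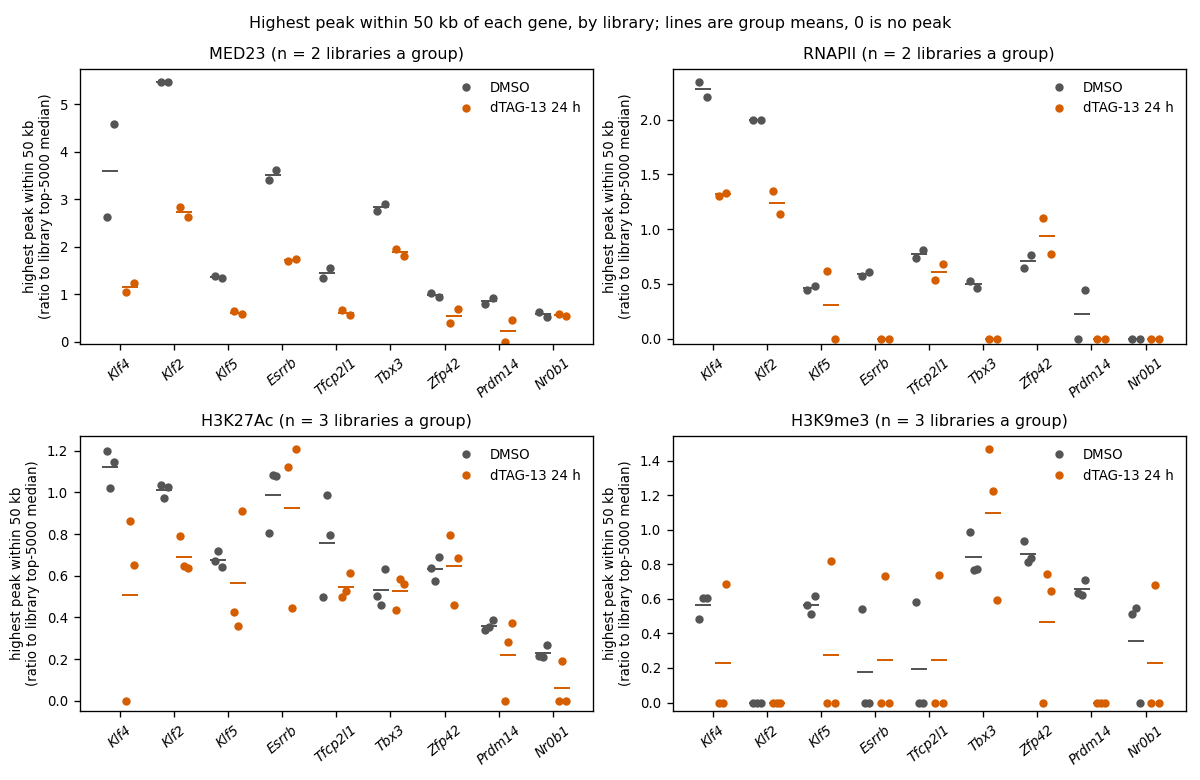
Highest peak within 50 kb of each of the 9 genes (x axis) as a ratio to the median fold enrichment of the library's 5000 highest peaks (y axis), for MED23, RNAPII, H3K27Ac and H3K9me3, with points for libraries in DMSO (grey) and 24 h of dTAG-13 (orange), lines for group means and 0 for no peak. MED23 groups stand apart for every gene but *Nr0b1*, and the H3K9me3 groups mostly overlap.

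The members' profiles fell into shapes that the rule had not used. Over the 15 time course libraries, which share 5 groups so that the values describe the group steps, Pearson r of log2(TPM + 0.5) was 0.992 between *Esrrb* and *Tfcp2l1*, 0.991 between *Zfp42* and *Nr0b1* and 0.978 between *Klf2* and *Esrrb*. *Klf4* was closest to *Zfp42* (0.927), *Klf5* to *Klf4* (0.539), and *Tbx3* was negative with all but *Klf5* (0.326). Among 11919 genes with a mean of at least 5 TPM, the nearest to *Nr0b1* were *Nsun2* (0.998), *Aoah* (0.998) and *Wdr75* (0.997), those to *Esrrb* were *Spp1*, *Fkbp5* and *Fgf4* (each 0.997), and those to *Prdm14* were *H2-M6-ps*, *Tet1* and *Actr3b* (0.993 to 0.992). The nearest to *Klf2* were *Mymx*, *Zswim1* and *Itpk1* (0.992 to 0.991), to *Klf4* *Wdr82*, *Clns1a* and *Nfu1* (0.990 to 0.989), to *Zfp42* *Urb2*, *Snx5* and *Uba2* (0.997 to 0.996), and to *Tfcp2l1* *Msh6*, *Kcnk5* and *Impa2* (each 0.995). *Klf5* (*Tuba1c*, *Rad23b* and *Zfp518b*, 0.970 to 0.969) and *Tbx3* (*Cnnm2*, *Prep* and *Hdac2*, 0.960 to 0.929) had the least close neighbours.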

How the data were processed

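TPM values, and the read coverage from which relative depth was taken, were deposited per gene by the authors from StringTie 2.0.6, for RNA-seq reads mapped with STAR 2.7.5a to mm10. FPKM values per gene were deposited by the authors for TT-SLAM-seq, from reads with converted bases mapped with SLAM-DUNK and counted by strand with htseq-count, multi-mapped reads included. ChIP-seq peaks were called by the authors with MACS2 in each library separately, and the deposited columns used were the fold enrichment, a ratio to the local background, and −log10 q. The notes also name the dm6 genome, with no stated use for peak values. The study names its RNAPII ChIP as one with a reference exogenous genome. Dividing by a library's own top peaks removes any change that all its peaks share. Gene positions came from GENCODE, promoter sequences from RefSeq (GRCm38.p6).

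Levels were tested with limma 3.58.1 (R 4.3.3) on log2(value + 0.5), with Benjamini-Hochberg adjustment over all genes at 0.5 FPKM or 1 TPM or more in at least 3 libraries of a fit, because these are scaled values and not the counts that the study's own test used. Whole reads were recovered from the TT-SLAM-seq FPKM values (100% of values of up to 20 reads within 0.1 of a whole number) for limma's voom, an alternative that called 2327 genes higher and 2237 lower at 24 h. Rose, fell, higher and lower mean an adjusted p below 0.05, and past 2-fold a log2 change beyond 1 as well. RNA-seq depth is relative, since TPM keeps no totals. Fits covered the time course, the shERV line, the parental, NPC and DMSO groups, and both lines for the interaction. Peak heights were compared as the report describes, with exact permutation tests. Simulated data tested only the limma fit, for RNA-seq and TT-SLAM-seq at 24 h against DMSO, and the call by groups that do not overlap, with 3 libraries a group. The permutation test, voom, the interaction and groups of 2 libraries were not simulated.

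The members are given by name, with no measured value in the rule, but they and the gene lists were chosen with earlier results of these data known. All members were named, with up to 2 genes a direction from each list past 2-fold, the 3 genes nearest in profile to each member, and *Trim28*. *Zfp42-ps1* was added after its values were seen. Alternatives were other pseudocounts (0.1, 1), no filter, a mean of at least 5, median centring, only the groups compared, a replicate block, other windows and peak measures, and each library left out. Single-cell, Hi-C and input libraries were not analysed here. 0 columns of per-sample values were left without a sample.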

Additional observations from a re-analysis of the deposited data

Results flagged for a closer look

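The 24 h effect of dTAG-13 was unlike in the 2 lines for 7 of the 9 members in the test of the interaction itself (limma, adjusted p below 0.05, 24 libraries). The difference, shERV line minus time course on the log2 scale, was 0.83 for *Klf5*, −0.80 for *Esrrb*, −0.98 for *Tfcp2l1*, −1.21 for *Tbx3*, −0.23 for *Zfp42*, −1.12 for *Prdm14* and −0.64 for *Nr0b1*. The cells and the RNA preparation differed together with the line, and their parts cannot be told apart.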

How the results depend on the processing

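Counts of members called stayed within 1.5 times of the reported count in 207 of 235 alternative settings, passed changes kept direction and call in 1064 of 1099, lost the call in 34 and reversed in 1 (*Tbx3* at 96 h, −0.0178 with median centring), and of 546 settings for changes that had not passed, 24 passed and 31 changed sign. In TT-SLAM-seq 1 member was higher at 2 h with median centring and 2 with voom on recovered reads. At 6 h the count was 0 with a pseudocount of 0.1, no filter, a mean of at least 5, only the groups compared and the replicate block, and 0 to 1 with a library left out. At 24 h it was 0 with a mean of at least 5, where fewer members are tested, 7 with median centring and 7 with voom on recovered reads, and 2 to 6 with a library left out. The shERV Dox and DMSO groups gave 1 call with median centring. For peaks, H3K27Ac gave 6 on the deposited fold, 1 by number of top 5000 peaks and 3 to 5 with a library left out, H3K9me3 gave 1 within 10 kb, 0 at the start, 0 at a −log10 q of at least 10, 0 by top 5000 peaks and 4 by number of all peaks (an alternative chosen after seeing the data), and RNAPII gave 1 by top 5000 peaks. The cause was not tested.

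Some values that had not passed changed sign. In TT-SLAM-seq at 6 h they were *Klf5* −0.0611 and *Esrrb* −0.0022 with median centring, and *Klf5* −0.0935, *Esrrb* −0.0051 and *Zfp42* −0.028 with voom on recovered reads. For shERV Dox against DMSO with median centring they were *Klf4* −0.043, *Tbx3* −0.0211 and *Prdm14* −0.0102. For the interaction they were *Klf4* 0.0151 with a pseudocount of 1 and 0.11 with median centring, and *Klf2* 0.10 with median centring. With a library left out, the ranges that crossed 0 in TT-SLAM-seq 2 h against DMSO were *Klf4* −0.0702 to 0.35, *Tfcp2l1* −0.0389 to 0.13, *Nr0b1* −0.0028 to 0.26. In TT-SLAM-seq 6 h against DMSO they were *Tbx3* −0.22 to 0.11, *Klf5* −0.10 to 0.11, *Esrrb* −0.0753 to 0.18, *Zfp42* −0.0257 to 0.14, *Klf2* −0.0237 to 0.27. In RNA-seq 2 h against DMSO they were *Tfcp2l1* −0.0033 to 0.0516. In RNA-seq 6 h against DMSO they were *Prdm14* −0.0811 to 0.0071. In RNA-seq 24 h against DMSO they were *Tbx3* −0.16 to 0.0229. For shERV Dox against DMSO they were *Zfp42* −0.0641 to 0.0186, *Nr0b1* −0.10 to 0.0136. For the interaction they were *Klf2* −0.11 to 0.0801, *Klf4* −0.0507 to 0.0195.

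Replicate numbers are shared between groups, but same-numbered samples showed little joint deviation (correlations between −0.205 and 0.177, and no comparison with every pair over 0.1). The number was therefore not used as a pair in the main fits, though these correlations cannot exclude a shared culture or batch. With the replicate block, the 6 h TT-SLAM-seq count of 1 became 0, *Klf5* at 24 h lost its call (adjusted p = 0.0546) and *Tfcp2l1* at 24 h in the RNA-seq gained one (adjusted p = 0.0423). Depth limits *Prdm14* and *Nr0b1* in TT-SLAM-seq, and 2 or 3 libraries a group limit every peak comparison.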
